A study of Mus musculus with 12 samples.

Results

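A set of 40 genes of DNA replication and mitosis was followed in bulk RNA sequencing of mouse pancreatic ductal adenocarcinoma (PDAC) tumours grown under the skin. The members were taken by gene symbol from the deposited count tables, and all 40 of the 40 were found among the 25619 genes present in every table. They comprise 17 S phase members, which act at the start of the cycle and in DNA copying, and 23 mitotic members, which act mostly from late S phase to cell division. The 12 libraries form 4 groups of 3: tumours of mice given both an agonistic CD40 antibody and an anti-IL-1R1 antibody (called combination), the agonistic CD40 antibody alone, the anti-IL-1R1 antibody alone, or no treatment. The labels state that dosing was intraperitoneal, 2 times a week. They do not state the tumour cell line, the strain and age of the mice, the day of collection or whether each library is a separate mouse, so p-values cover only the variation among these libraries, part of which may be technical. CD40 is carried by antigen-presenting cells, and IL-1R1 passes on the signal of the IL-1 cytokines. The comparisons ask how the cell cycle transcripts of the tumour tissue stand under each antibody and under both.

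A dividing cell makes its cell cycle transcripts in waves. When cyclin E and its kinase release E2F factors from the retinoblastoma protein, the genes for origin licensing, the replicative helicase and nucleotide supply are switched on, and in G2 the factors B-Myb and FoxM1, working with the MuvB complex, switch on the genes for the spindle, the kinetochore and cell division. Quiescent cells hold both waves down, so that transcripts of this kind are used in tumours as a measure of how many cells are cycling. In bulk tissue, fewer cycling cells and less of these transcripts per cell cannot be told apart, and a library mixes tumour cells with fibroblasts and leukocytes, all of which can divide.

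RefSeq promoter windows (build GRCm38.p6, 250 bases before to 30 bases after the transcription start) were available for 32 members, 14 of S phase and 18 mitotic. Both strands were searched for an E2F motif (TTTCCCGC, TTTCGCGC, TTTGCCGC or TTTGGCGC), for the CHR element that MuvB complexes bind (TTTGAA or TTCGAA) and for the NF-Y box CCAAT; none of these motifs contains another. An E2F motif stood in 4 of 14 S phase windows (28.6%) and 1 of 18 mitotic windows (5.6%), against 2.1% of the 32851 windows of all genes. A CHR element stood in 2 of 14 S phase windows (14.3%) and 12 of 18 mitotic windows (66.7%), against 18.4% of all windows. CCAAT was found in 9 of 14 S phase windows (64.3%) and 16 of 18 mitotic windows (88.9%), against 36.1% of all windows. CHR and CCAAT together were found in 14.3% of the S phase windows and 66.7% of the mitotic windows, against 6.9% of all windows. A match describes the letters in the window and is not a site shown to be bound. The windows below belong to 3 of the members with the lowest p in combination against untreated tumours, and they show the layouts. They lie at chr11:98907901-98908180 on the plus strand for Cdc6 and, on the minus strand, at chr11:99024160-99024439 for Top2a and chr1:189688057-189688336 for Cenpf. Capitals mark every E2F, CHR and CCAAT match on either strand.

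Cdc6: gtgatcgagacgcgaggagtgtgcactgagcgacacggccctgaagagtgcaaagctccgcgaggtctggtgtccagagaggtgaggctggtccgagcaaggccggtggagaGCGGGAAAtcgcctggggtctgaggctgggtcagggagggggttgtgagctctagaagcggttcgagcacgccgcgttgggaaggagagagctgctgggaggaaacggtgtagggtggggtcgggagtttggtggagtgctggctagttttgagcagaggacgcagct

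Top2a: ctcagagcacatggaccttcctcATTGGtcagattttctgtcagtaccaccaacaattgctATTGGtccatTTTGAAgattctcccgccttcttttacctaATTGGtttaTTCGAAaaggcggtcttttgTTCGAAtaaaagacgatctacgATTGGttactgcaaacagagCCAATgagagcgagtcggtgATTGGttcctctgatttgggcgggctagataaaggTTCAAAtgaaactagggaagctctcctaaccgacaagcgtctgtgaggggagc

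Cenpf: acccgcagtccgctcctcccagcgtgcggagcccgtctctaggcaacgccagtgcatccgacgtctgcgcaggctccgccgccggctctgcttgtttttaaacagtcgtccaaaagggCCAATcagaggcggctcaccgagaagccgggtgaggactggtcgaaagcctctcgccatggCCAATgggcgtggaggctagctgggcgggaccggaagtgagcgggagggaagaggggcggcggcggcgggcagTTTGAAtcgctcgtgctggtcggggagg

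In these windows Cdc6, a licensing factor, holds 1 E2F match, 138 bases before the start, and neither of the other motifs. Top2a, the mitotic topoisomerase, holds 4 CHR and 6 CCAAT matches, the CHR match nearest to the start beginning 23 bases before it. Cenpf, a kinetochore protein, holds 2 CCAAT matches, 132 and 71 bases before the start, and 1 CHR match that begins just after it. The windows of Ccne1, Pcna and Cenpe, which with those shown have the lowest p of their phase among members with a window, hold no E2F or CHR match, and the last 2 hold 1 CCAAT each.

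Libraries held 27.8 to 53.3 M reads in genes, and the lowest count of a member in a library was 118. Mitochondrially encoded genes took 1.44 to 2.5% of reads and Rn18s 0.508 to 4.1%; combination 3, the library in which most members were highest, had the lowest Rn18s share, against 1.38% or more in every other library, and the lowest mitochondrial share, 1.44% against 1.45% in the next. Summed CPM (counts scaled to the TMM-adjusted library total) of 10 epithelial tumour cell markers was 2200 to 3100 in combination, 3536 to 5039 in CD40 agonist, 3638 to 4714 in anti-IL-1R1 and 3588 to 5109 in untreated tumours; among these markers Cldn4 had no reads in 2 libraries and Epcam in 1. The 10 T cell markers summed to 20.8 to 81.1 CPM in combination, 7.83 to 31.6 CPM in CD40 agonist, 4.87 to 12.8 CPM in anti-IL-1R1 and 13.6 to 29.5 CPM in untreated tumours, and all had reads in every library. The 10 macrophage and monocyte markers summed to 1777 to 2690, 1079 to 2555, 794 to 1133 and 985 to 1266 CPM in combination, CD40 agonist, anti-IL-1R1 and untreated tumours, again with reads of every marker in every library. Fibroblast markers summed to 6157 to 19680, 9192 to 16280, 9658 to 18410 and 14350 to 15870 CPM in the same order of groups. Skeletal muscle transcripts stood at 3971 CPM in combination 1 and 2162 CPM in CD40 agonist 2 and at no more than 46.2 CPM elsewhere, so results are also given without these 2 libraries where that matters. The part of these other cell types in the cell cycle results was not tested.

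The 40 transcripts together were most abundant in combination tumours and least in untreated tumours. Their summed level was 2274, 2946 and 3386 CPM in combination replicates 1, 2 and 3, 2533, 2658 and 2411 CPM in CD40 agonist, 1976, 2191 and 2429 CPM in anti-IL-1R1 and 1857, 2194 and 2172 CPM in untreated tumours (means 2869 ± 560, 2534 ± 123.5, 2199 ± 226.6 and 2074 ± 188.5, SD, n = 3 each). All 3 CD40 agonist libraries and all 3 combination libraries exceeded every untreated library, while combination 1 was below the CD40 agonist group and anti-IL-1R1 overlapped with untreated. Of the 40 members, 28 had their highest group mean in combination, 11 in CD40 agonist and 1, Kif23, in anti-IL-1R1. The lowest group mean was that of untreated tumours for 23 members, anti-IL-1R1 for 16 and combination for 1, Kif20a. The means ran combination, CD40 agonist, anti-IL-1R1, untreated from high to low for 17 members, 6 of S phase and 11 mitotic. By library, combination 3 was the highest of all 12 for 23 members and combination 2 for 15, whereas combination 1 was highest for 0. Untreated 1 was the lowest for 15 members.

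**Figure D1:**
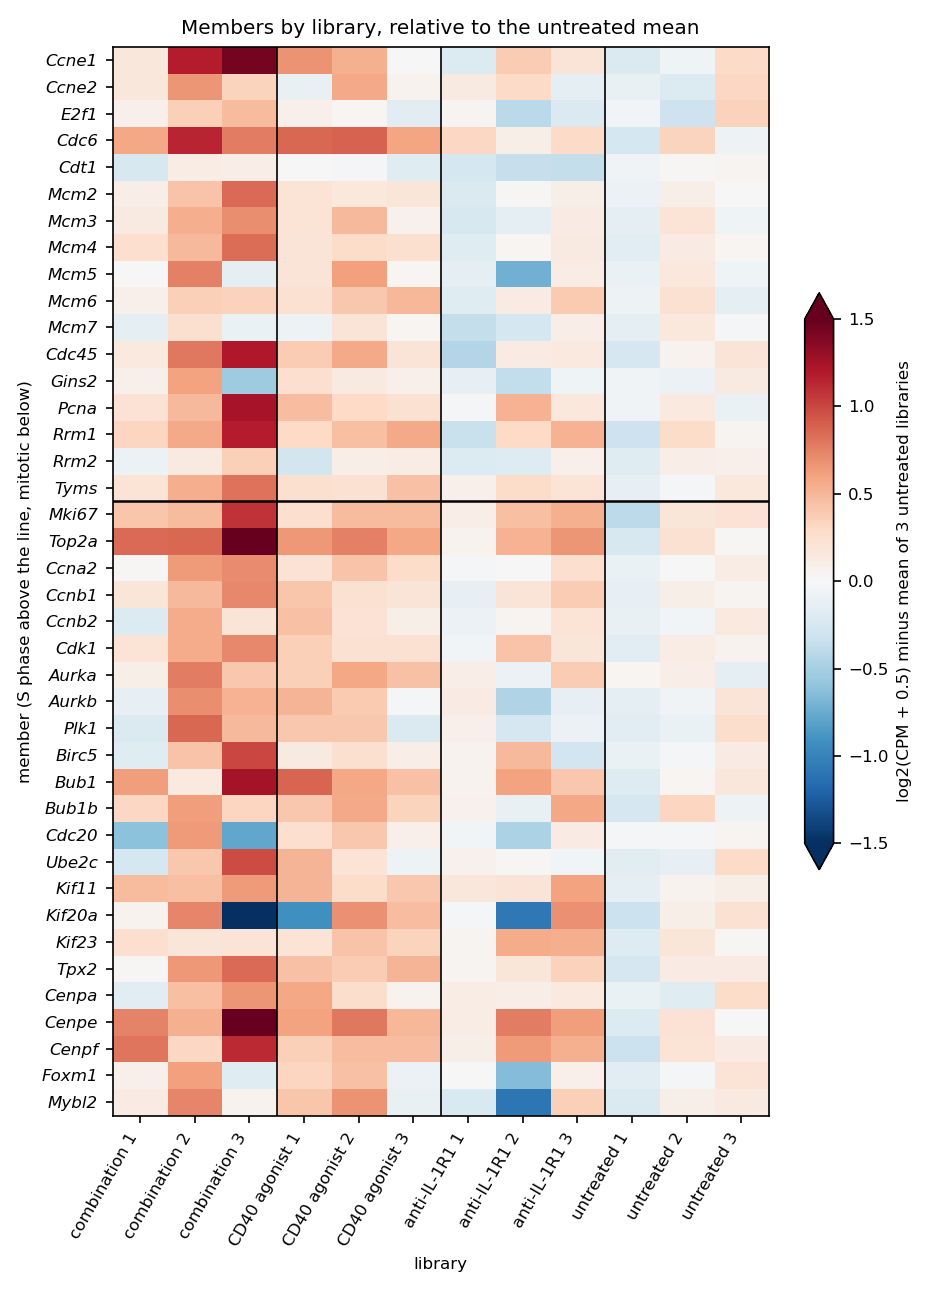
Level of each of the 40 members (rows) in each of the 12 libraries (columns, 3 per group) as log2(CPM + 0.5) minus the mean of the 3 untreated libraries, S phase members above the thick line and mitotic members below it. Combination 2 and 3 hold most of the deepest red cells, combination 1 is paler, and Kif20a in combination 3 is the darkest blue cell.

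The S phase members are taken first, in the order in which they act. Gene positions are those of the authors' tables (mm39), and the 3 values of a group are replicates 1, 2 and 3. The G1/S cyclins are Ccne1 and Ccne2, which activate the kinase Cdk2, and E2f1 is an activating E2F factor. Ccne1 (ENSMUSG00000002068, chr7:37797409-37806959, minus strand) was measured at 6.65, 13.9 and 16.7 CPM in combination, 9.61, 8.67 and 5.88 CPM in CD40 agonist, 5.02, 7.79 and 6.78 CPM in anti-IL-1R1 and 4.96, 5.57 and 7.23 CPM in untreated tumours. Its combination libraries span a wide range, from a level seen in the other groups to the 2 highest of the series, and overlap with untreated. E2f1 (ENSMUSG00000027490, chr2:154401327-154411812, minus strand) stood at 49.2, 59.9 and 64.95 CPM in combination, 48.9, 47.4 and 41.7 CPM in CD40 agonist, 48.03, 35.1 and 39.99 CPM in anti-IL-1R1 and 45.3, 37.5 and 59.2 CPM in untreated tumours. Combination exceeded both CD40 agonist and anti-IL-1R1 in every library, but overlapped with untreated, where replicate 3 was close to combination 2. Ccne2 averaged 11.1 ± 2.07, 9.59 ± 2.60, 8.96 ± 1.36 and 8.39 ± 1.78 CPM in combination, CD40 agonist, anti-IL-1R1 and untreated tumours (SD, n = 3 each), with overlap between all groups.

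Origin licensing places the MCM helicase, a ring of Mcm2 to Mcm7, on DNA through the loaders Cdc6 and Cdt1, and Cdc45 and the GINS subunit Gins2 turn it into the active helicase. Cdc6 (ENSMUSG00000017499, chr11:98798627-98814766, plus strand) was at 12.1, 18.1 and 13.8 CPM in combination, 14.7, 15.01 and 12.1 CPM in CD40 agonist, 9.94, 8.46 and 9.71 CPM in anti-IL-1R1 and 6.51, 10.1 and 7.45 CPM in untreated tumours. Every library with the CD40 agonist, alone or combined, was above every library without it. Cdt1 (ENSMUSG00000006585, chr8:123294754-123300293, plus strand) had 49.8, 64.01 and 63.6 CPM in combination, 59.5, 58.4 and 52.04 CPM in CD40 agonist, 49.3, 46.4 and 45.9 CPM in anti-IL-1R1 and 56.8, 59.9 and 60.8 CPM in untreated tumours. The 3 anti-IL-1R1 libraries were the lowest of the series and did not overlap with any other group, while combination, CD40 agonist and untreated overlapped. Mcm2 (ENSMUSG00000002870, chr6:88860456-88875762, minus strand) was at 104, 130.1 and 175 CPM in combination, 112, 108 and 109.5 CPM in CD40 agonist, 83.5, 97.96 and 103 CPM in anti-IL-1R1 and 90.97, 103 and 97.03 CPM in untreated tumours. The CD40 agonist libraries lay close together, combination ranged from just below them to far above, and both groups cleared every anti-IL-1R1 and untreated library.

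Mcm3 (ENSMUSG00000041859, chr1:20873192-20890536, minus strand) stood at 68.7, 91.7 and 102 CPM in combination, 72.2, 87.95 and 65.2 CPM in CD40 agonist, 52.9, 56.7 and 68.1 CPM in anti-IL-1R1 and 56.5, 72.3 and 60.04 CPM in untreated tumours. Combination was above anti-IL-1R1 in every library and overlapped with the other groups. Mcm4 (ENSMUSG00000022673, chr16:15441761-15455264, minus strand) had 71.9, 84.9 and 108 CPM in combination, 68.7, 72.8 and 70.97 CPM in CD40 agonist, 53.2, 61.7 and 66.3 CPM in anti-IL-1R1 and 53.9, 65.7 and 61.7 CPM in untreated tumours. Combination and CD40 agonist both cleared untreated and anti-IL-1R1, and overlapped with each other through combination 1. Cdc45 (ENSMUSG00000000028, chr16:18599197-18630737, minus strand) was at 15.2, 24.03 and 31.9 CPM in combination, 17.9, 20.5 and 15.7 CPM in CD40 agonist, 9.94, 14.9 and 15.2 CPM in anti-IL-1R1 and 11.4, 14.2 and 15.7 CPM in untreated tumours. Its combination 2 and 3 values were the 2 highest of the series, while combination 1 was equal to anti-IL-1R1 3 at this precision and below untreated 3. Of the other helicase members, Mcm6 was highest in CD40 agonist (means 128 ± 13.6, 138 ± 13.1, 116 ± 23.1 and 106 ± 15.3 CPM in the order combination, CD40 agonist, anti-IL-1R1, untreated), Mcm7 averaged 129 ± 19.1, 133 ± 12.4, 114 ± 19.97 and 128 ± 13.4 CPM in that order, and Mcm5 and Gins2, unlike Mcm2 to Mcm4, were lower in combination 3 than in combination 2, with 55.9 and 104 CPM for Mcm5 and 17.6 and 39.3 CPM for Gins2.

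The sliding clamp Pcna holds the polymerase on DNA, the ribonucleotide reductase subunits Rrm1 and Rrm2 make deoxynucleotides, and thymidylate synthase (Tyms) makes thymidylate. Pcna (ENSMUSG00000027342, chr2:132091082-132095234, minus strand) was measured at 114, 137 and 231 CPM in combination, 135, 120.0 and 114 CPM in CD40 agonist, 96.5, 140.0 and 109 CPM in anti-IL-1R1 and 94.5, 108 and 90.98 CPM in untreated tumours. All combination and CD40 agonist libraries exceeded the untreated ones, and combination 3 stood far above the rest. Per kilobase of gene length, Pcna was the most abundant member, with 66.9 ± 25.8, 51.3 ± 4.46, 48 ± 9.34 and 40.8 ± 3.86 CPM per kb in combination, CD40 agonist, anti-IL-1R1 and untreated tumours (SD, n = 3 each), and Cdc6 was the least in untreated tumours, at 1.53 ± 0.358 CPM per kb. Rrm1 averaged 102 ± 33.03, 83.5 ± 7.96, 70.7 ± 20.1 and 62.1 ± 12.3 CPM, Rrm2 95.6 ± 14.8, 85.7 ± 12.7, 80.7 ± 9.25 and 86.7 ± 9.02 CPM and Tyms 32.3 ± 6.83, 27.3 ± 2.28, 25.1 ± 1.77 and 22.1 ± 2.26 CPM in that order of groups. For Rrm1 and Tyms combination did not overlap with untreated, and Rrm2 overlapped throughout. Pseudogenes of Pcna, Tyms, Ccnb1 and Ccnb2 are listed in the same tables, so reads of these 4 members may be shared with them to an unknown degree.

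Among mitotic members, Mki67 encodes the proliferation antigen Ki-67, which coats mitotic chromosomes, and Top2a the topoisomerase that untangles sister chromatids. Both are already made in S phase. Top2a (ENSMUSG00000020914, chr11:98883769-98915015, minus strand) was at 173, 175 and 340.2 CPM in combination, 151, 163 and 144 CPM in CD40 agonist, 100.1, 139 and 153 CPM in anti-IL-1R1 and 81.6, 112 and 97.1 CPM in untreated tumours. The combination libraries were above all CD40 agonist, anti-IL-1R1 and untreated libraries, CD40 agonist was above untreated, and combination 3 was far above every other library. Mki67 (ENSMUSG00000031004, chr7:135291513-135318090, minus strand) stood at 129.5, 135 and 206 CPM in combination, 116, 135 and 135 CPM in CD40 agonist, 104, 133 and 141 CPM in anti-IL-1R1 and 73.8, 110.4 and 113 CPM in untreated tumours. Combination and CD40 agonist did not overlap with untreated, but did with anti-IL-1R1.

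**Figure D2:**
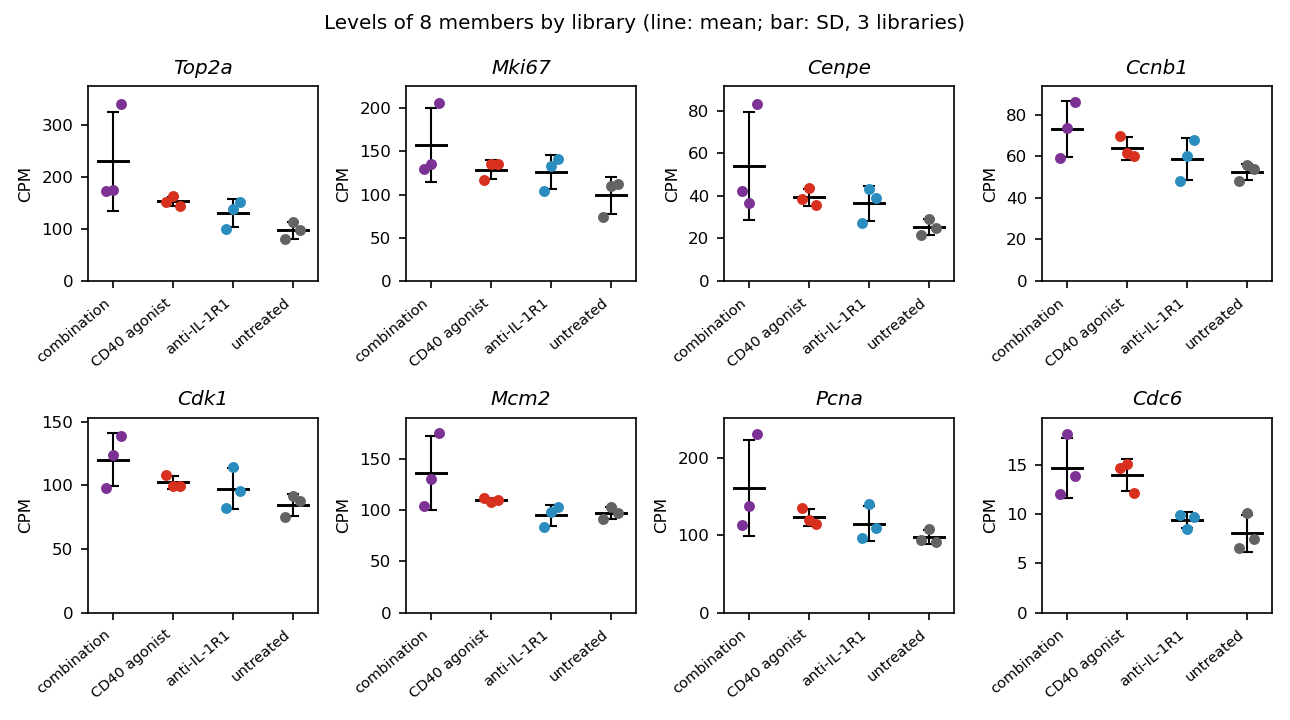
CPM of 8 members by group, with each library as a point, the mean as a line and the SD of 3 libraries as a bar. The highest point of each panel is a combination library, combination 3 in all panels but that of Cdc6.

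Cyclin B (Ccnb1, Ccnb2) with Cdk1 forms the kinase that starts mitosis, and cyclin A2 (Ccna2) acts in S phase and G2. Ccnb1 (ENSMUSG00000041431, chr13:100915158-100923078, minus strand) was at 59.3, 73.6 and 86.3 CPM in combination, 69.9, 61.5 and 59.9 CPM in CD40 agonist, 48.2, 60.1 and 68.1 CPM in anti-IL-1R1 and 47.9, 55.7 and 53.8 CPM in untreated tumours. Cdk1 (ENSMUSG00000019942, chr10:69170976-69188768, minus strand) was at 97.6, 124 and 139 CPM in combination, 108, 99.5 and 99.6 CPM in CD40 agonist, 82.04, 114 and 95.8 CPM in anti-IL-1R1 and 75.2, 91.5 and 88.1 CPM in untreated tumours. For both, combination and CD40 agonist lay above untreated without overlap, and anti-IL-1R1 spread across its neighbours. Ccna2 averaged 119.7 ± 29.1, 106 ± 8.36, 89.95 ± 9.81 and 85.3 ± 6.33 CPM and Ccnb2 56.2 ± 14.8, 57.8 ± 7.40, 50.5 ± 5.28 and 48.6 ± 4.69 CPM in combination, CD40 agonist, anti-IL-1R1 and untreated tumours.

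The mitotic kinases Aurka and Plk1 act at the spindle poles, and Aurkb with survivin (Birc5) forms the passenger complex that corrects chromosome attachment. Aurka averaged 32.8 ± 7.88, 33.1 ± 2.66, 26.4 ± 4.49 and 23.9 ± 2.10 CPM and Aurkb 41.6 ± 11.5, 39.02 ± 7.30, 28.6 ± 5.74 and 31.5 ± 4.04 CPM in combination, CD40 agonist, anti-IL-1R1 and untreated tumours. Plk1 averaged 53.2 ± 18.9, 45.8 ± 10.6, 36.8 ± 4.18 and 39.3 ± 6.68 CPM and Birc5 61.9 ± 24.8, 48.8 ± 2.53, 47.5 ± 12.9 and 43.9 ± 3.60 CPM in that order. Only for Aurka did a treated group clear untreated, namely CD40 agonist. Bub1 and Bub1b act in the spindle checkpoint, which restrains the ubiquitin ligase APC/C until all chromosomes are attached, and Cdc20 and Ube2c are its activator and its ubiquitin-conjugating enzyme. Bub1 (ENSMUSG00000027379, chr2:127643036-127673785, minus strand) was at 22.6, 15.98 and 34.7 CPM in combination, 26.8, 21.8 and 19.6 CPM in CD40 agonist, 14.9, 22.2 and 19.1 CPM in anti-IL-1R1 and 12.5, 14.6 and 16.2 CPM in untreated tumours. CD40 agonist was above untreated in every library, while combination 2 was within the untreated range and combination 3 the highest of all. Cdc20 stood at 34.8 CPM in combination 1, 83.2 CPM in combination 2 and 30.8 CPM in combination 3, so that this group held both the highest and the lowest libraries, against 52.5 to 55.2 CPM in untreated tumours. Ube2c averaged 105 ± 43.5, 89.5 ± 18.1, 76.7 ± 2.77 and 76.9 ± 13.99 CPM and Bub1b 46.4 ± 6.14, 46.9 ± 3.99, 39.8 ± 10.4 and 34.9 ± 7.38 CPM in the same order of groups.

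The kinesin Kif11 pushes spindle poles apart, Kif20a and Kif23 act at the midzone in cytokinesis, and Tpx2 activates Aurka and seeds spindle microtubules. Kif11 (ENSMUSG00000012443, chr19:37364851-37410307, plus strand) was at 53.4, 52.6 and 59.6 CPM in combination, 54.8, 46.2 and 50.7 CPM in CD40 agonist, 43.01, 43.7 and 58.2 CPM in anti-IL-1R1 and 34.7, 39.5 and 40.7 CPM in untreated tumours. It was the only member for which all 3 treated groups cleared untreated in every library. Kif23 (ENSMUSG00000032254, chr9:61823187-61854056, minus strand) was at 51.1, 49.02 and 49.6 CPM in combination, 49.6, 58.2 and 54.4 CPM in CD40 agonist, 44.4, 63.4 and 62.8 CPM in anti-IL-1R1 and 37.4, 48.95 and 43.4 CPM in untreated tumours. Here anti-IL-1R1 held the highest 2 libraries, and combination stood within a narrow range just above untreated. Kif20a, named after its values were seen, had 15 CPM in combination 1, 24.4 CPM in combination 2 and 2.52 CPM in combination 3, the widest spread of any member (9.65-fold between its highest and lowest libraries), against 11.6 to 17.1 CPM in untreated tumours.

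Centromere proteins are Cenpa, the histone H3 variant that marks centromeres, the kinetochore motor Cenpe and the kinetochore protein Cenpf. Cenpe (ENSMUSG00000045328, chr3:134918298-134979372, plus strand) was at 42.5, 36.7 and 83.4 CPM in combination, 38.6, 43.8 and 35.7 CPM in CD40 agonist, 27.4, 43.2 and 39.2 CPM in anti-IL-1R1 and 21.8, 29.3 and 25.1 CPM in untreated tumours. Cenpf (ENSMUSG00000026605, chr1:189372803-189420283, minus strand) was at 55.8, 39.3 and 69.3 CPM in combination, 40.9, 43.97 and 43.97 CPM in CD40 agonist, 33.8, 49.6 and 46.03 CPM in anti-IL-1R1 and 25.2, 36.6 and 34.5 CPM in untreated tumours. For both, combination and CD40 agonist cleared untreated, anti-IL-1R1 overlapped with both CD40 agonist and untreated, and combination 3 was the highest library. Cenpa averaged 76.98 ± 21.4, 74.98 ± 14.1, 65.2 ± 1.14 and 60.7 ± 10.7 CPM with overlap between all groups. Foxm1 and Mybl2, the factors that switch mitotic genes on (Mybl2 encodes B-Myb), averaged 75.5 ± 22.3, 77.2 ± 14.2, 58.5 ± 14.9 and 65.5 ± 9.08 CPM and 15.8 ± 4.54, 16.1 ± 4.39, 10.7 ± 5.25 and 12.5 ± 1.64 CPM, and both overlapped between all groups.

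Combination against untreated tumours gave the largest median over the 40 members (0.47, against 0.36 in combination against anti-IL-1R1), although the S phase median was as large against anti-IL-1R1. Of the 40 members, 38 had a positive log2 fold change, all 17 of S phase and 21 of 23 mitotic members, the exceptions being Cdc20 (-0.11) and Kif20a (-0.07). The median log2 fold change was 0.48 for S phase and 0.46 for mitotic members, beside 0.00 over all 19436 tested genes. The 4 members with the lowest p came from both phases, namely Top2a (1.24 ± 0.25, SE), Cenpe (1.09 ± 0.28), Cdc6 (0.87 ± 0.24) and Cenpf (0.77 ± 0.22). None of these passed the threshold of an adjusted p under 0.05 in edgeR, Top2a being nearest with an adjusted p of 0.0676. The background of this threshold was 0.0617% of tested genes, that is 12 genes. At an unadjusted p under 0.05 there were 20 members (9 of S phase and 11 mitotic), against 15.5% of all tested genes. In 14 members all combination libraries were above all untreated libraries, against 10.7% of genes, and in 0 members all were below, against 11.7%. DESeq2 called 4 members, Top2a, Cenpe, Cdc6 and Cenpf, among 1026 of 19328 genes, a far larger background than in edgeR. In limma voom 0 members were called, among 1 of 19436 genes. At an unadjusted p under 0.05 there were 20 members in each, against 3446 genes in DESeq2 and 3367 in limma voom.

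The other members fixed for description were in the same direction. Mki67 differed by 0.67 ± 0.21 on the log2 scale (SE; adjusted p = 0.16 in edgeR), Pcna by 0.71 ± 0.23 (adjusted p = 0.163) and Mcm2 by 0.49 ± 0.18 (adjusted p = 0.199). Cdk1 differed by 0.50 ± 0.17 and Ccnb1 by 0.48 ± 0.17, with adjusted p of 0.176 and 0.206. Ccne1 had a fold change as large as that of Cenpe, 1.07 ± 0.34, with a wider error. Cdt1 was level, at 0.00 ± 0.14, and so was Mcm7, at 0.01 ± 0.17. Without combination 1, 31 members lay above all untreated libraries, against 16.2% of genes, the medians were 0.62 and 0.61, and 1 member was called. Without combination 2, 3 members were called, among 550 genes. Over all genes, the calls ran from 0 to 550 with 1 library left out. Without combination 3 the medians were 0.37 for S phase and 0.38 for mitotic members, and the value of Top2a was 0.84.

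CD40 agonist against untreated tumours gave smaller differences. All 23 mitotic members and 14 of 17 S phase members had a positive log2 fold change, with medians of 0.31 and 0.26, beside 0.01 over all tested genes. Cdc6 (0.80 ± 0.24, SE), Top2a (0.66 ± 0.25), Kif11 (0.40 ± 0.16) and Bub1 (0.65 ± 0.27) had the lowest unadjusted p in edgeR. The adjusted p was 1 for every member, and 0% of tested genes was called. At an unadjusted p under 0.05 there were 8 members (2 of S phase and 6 mitotic), against 2.41% of genes. In 21 members, 7 of S phase and 14 mitotic, all 3 CD40 agonist libraries were above all 3 untreated libraries, against 5.14% of genes, and in 0 members all were below, against 5.81%. DESeq2 and limma voom also called 0 members, with 6 and 9 at an unadjusted p under 0.05. At that level were 651 of 19328 genes in DESeq2 and 458 of 19436 in limma voom. The spread within the CD40 agonist group was small for these genes: the median SD of log2(CPM + 0.5) over members was 0.135, against 0.187 in untreated, while the 11407 genes averaging 5 CPM or more had 0.21 in CD40 agonist and 0.14 in untreated tumours.

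Among the members fixed for description, Mki67 differed by 0.38 ± 0.21, Pcna by 0.33 ± 0.23 and Mcm2 by 0.18 ± 0.17 between CD40 agonist and untreated tumours. Cdk1 differed by 0.27 ± 0.17 and Ccnb1 by 0.28 ± 0.17. Cdt1 (-0.06), E2f1 (-0.04) and Rrm2 (-0.02) were the 3 members below zero. Without untreated 1, the lowest library for 15 members, the medians were 0.17 for S phase and 0.22 for mitotic members and Mki67 differed by 0.19. In the authors' deposited table of this comparison, from DESeq2 on its 6 libraries alone, Top2a was the 1 member of the 16 genes called, with an adjusted p of 0.047. In that fit 14 members had an unadjusted p under 0.05. The share of its 29014 genes at that level was not determined, so this count has no background. The authors' deposited tables called 0 members among 23 genes for anti-IL-1R1 against untreated and 0 among 22 genes for combination against CD40 agonist.

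Anti-IL-1R1 against untreated tumours gave values on both sides of zero. The 10 licensing and helicase members had a median log2 fold change of -0.07, with 8 of 10 negative, and S phase members as a whole -0.03, with 7 of 17 positive. Mitotic members had a median of 0.14 with 17 of 23 positive, beside 0.00 over all tested genes. With 1 library left out, the S phase median ran from -0.10 (without anti-IL-1R1 3) to 0.08 (without anti-IL-1R1 1), so that its sign turned, and the mitotic median from 0.04 (without anti-IL-1R1 3) to 0.19. Centromere proteins (3 of 3 positive, median 0.43) and the spindle motors with Tpx2 (4 of 4, median 0.26) were above zero. Kif23 (0.40 ± 0.17, SE), Cdt1 (-0.33 ± 0.14), Kif11 (0.34 ± 0.16) and Cenpf (0.43 ± 0.22) had the lowest unadjusted p in edgeR. The adjusted p was 1 for all, and 0% of tested genes was called. At an unadjusted p under 0.05 there were 2 members, Kif23 and Cdt1, against 1.56% of genes, which for 40 members is a share of the same order. In 1 member, Kif11, all anti-IL-1R1 libraries were above untreated, against 4.84% of genes, and in 1, Cdt1, all were below, against 4.99%. DESeq2 and limma voom called 0 members, each with 2 at an unadjusted p under 0.05. At that level were 418 of 19328 genes in DESeq2 and 230 of 19436 in limma voom.

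Mki67 differed by 0.35 ± 0.21, Top2a by 0.43 ± 0.25 and Pcna by 0.23 ± 0.23 between anti-IL-1R1 and untreated tumours. Cdk1 differed by 0.20 ± 0.17, Ccnb1 by 0.17 ± 0.17 and Mcm2 by -0.03 ± 0.17. Across the 40 members, these log2 fold changes ran against the GC content of the transcript, with a Spearman rho of -0.74, and the rho was -0.48 across 10891 genes averaging 5 CPM or more. The rho across members and genes was also negative in combination against untreated (-0.51 and -0.25) and CD40 agonist against untreated (-0.43 and -0.23). For combination against CD40 agonist it was -0.31 and -0.18, for combination against anti-IL-1R1 0.1 and 0.05, and for the interaction 0.42 and 0.2. The points share their libraries, and the part of GC content was not tested. Offsets that remove the relation to GC in each library were an alternative chosen after seeing the data. With them the S phase and mitotic medians in anti-IL-1R1 against untreated were -0.06 and 0.12. Most of the members named here moved nearer to zero with these offsets: Kif11 was at 0.18, Cdt1 at -0.17, Cenpf at 0.28, Top2a at 0.28, Pcna at 0.13 and Ccnb1 at 0.04, while Mcm2 turned to 0.09. Anti-IL-1R1 1 was low for 7 members, and without it 13 members lay above all untreated libraries, against 13.5% of genes.

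In these 2 groups libraries of the same replicate number deviated together, with correlations of 0.246, 0.246 and 0.147 between their deviations from the group means, and no other 2 groups had all 3 such correlations above 0.1. Within the same-numbered pairs 13 members, 2 of S phase and 11 mitotic, were higher in anti-IL-1R1 in all 3 pairs, against 15% of genes, and 2, Cdt1 and Gins2, were lower in all 3, against 14.1%. The mitotic members higher in every pair included Mki67, Top2a, Cdk1, Bub1, Kif11, Kif23, Cenpe and Cenpf. With the replicate number as a block in these 6 libraries alone, a fit added after seeing the data, edgeR called 0 members and 27 genes. Because the pairing itself was chosen from these libraries, this fit and the counts by pair only describe them. At an unadjusted p under 0.05 there were 5 members, all mitotic and higher, against 7.48% of genes. These were Cenpe, Cenpf, Top2a, Kif23 and Mki67, Cenpe having the lowest p (0.52 ± 0.17, SE, edgeR adjusted p = 0.423). Their transcript GC content was 42.9 to 46.6%. Across 10891 genes, the deviations of anti-IL-1R1 1, 2 and 3 had a Spearman rho with GC of 0.41, -0.34 and 0.04. For untreated 1, 2 and 3 it was 0.24, -0.24 and 0.05. The part of GC content in this pairing was not tested.

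**Figure D3:**
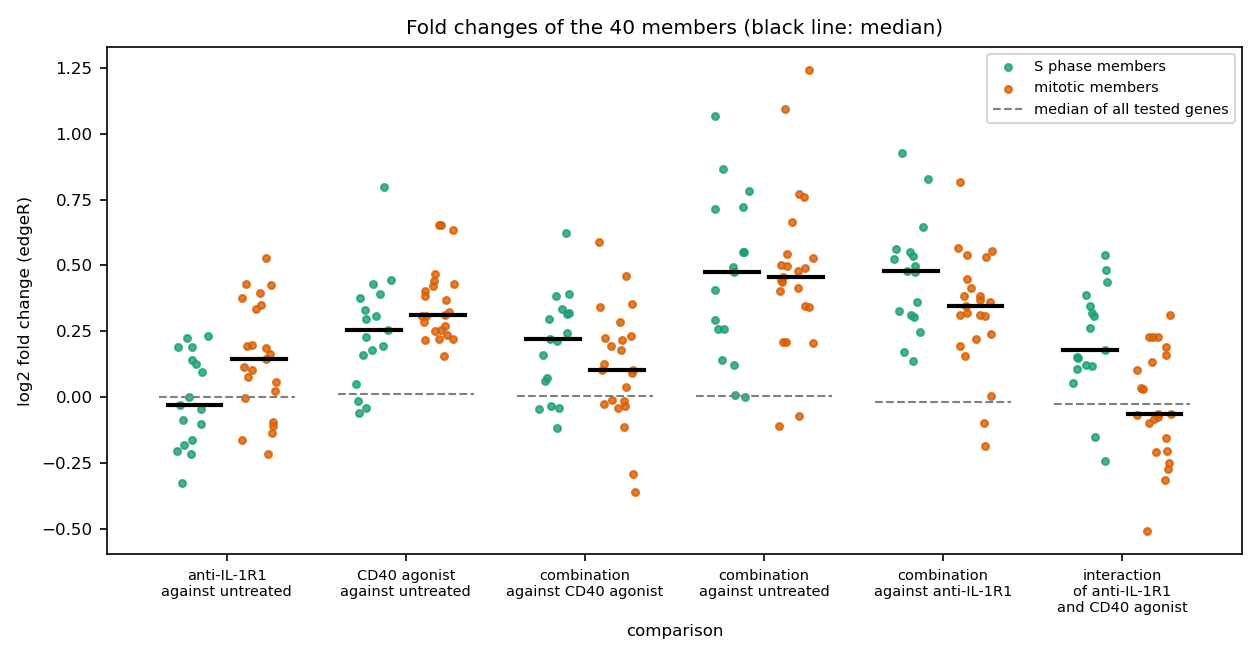
Log2 fold changes of the 40 members (points) in the 6 comparisons, S phase members in green and mitotic members in orange, with their medians as black lines and the median of all tested genes as a dashed line. Both medians sit above the dashed line except in anti-IL-1R1 against untreated and in the interaction. There the S phase and mitotic medians part, at -0.03 and 0.14 in the former and 0.18 and -0.07 in the latter.

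The combination comparisons use the same combination libraries, and the comparisons against untreated share the untreated libraries, so their values are not independent of each other. Combination against CD40 agonist tumours asks what the anti-IL-1R1 antibody adds. The median log2 fold change was 0.22 for S phase members, with 13 of 17 positive, and 0.10 for mitotic members, with 15 of 23 positive, beside 0.00 over all tested genes. Top2a (0.59 ± 0.25, SE), Mcm4 (0.32 ± 0.17), Ccne1 (0.62 ± 0.34) and Mcm2 (0.32 ± 0.17) had the lowest unadjusted p in edgeR. The lowest adjusted p of a member was 0.727, and the background of called genes was 0.00515%, that is 1 gene. At an unadjusted p under 0.05 there was 1 member, Top2a, against 6.64% of genes. In 2 members, E2f1 and Top2a, all combination libraries were above all CD40 agonist libraries, against 3.54% of genes, and in 0 all were below, against 5.02%. DESeq2 and limma voom called 0 members, with 1 and 0 at an unadjusted p under 0.05. At that level were 1604 of 19328 genes in DESeq2 and 1667 of 19436 in limma voom.

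Of the remaining members fixed for description, Mki67 differed by 0.28 ± 0.21, Pcna by 0.38 ± 0.23, Cdk1 by 0.23 ± 0.17 and Ccnb1 by 0.20 ± 0.17 between combination and CD40 agonist tumours. This comparison rested on which combination library was kept. Without combination 3 the medians were 0.09 for S phase and 0.03 for mitotic members, without combination 1 they were 0.36 and 0.30, and 18 members then lay above all CD40 agonist libraries, against 7.58% of genes. With combination 1 and CD40 agonist 2, both rich in muscle transcripts, left out, the S phase median was 0.44.

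Combination against anti-IL-1R1 tumours asks what the CD40 agonist adds. All 17 S phase members and 21 of 23 mitotic members had a positive log2 fold change, with medians of 0.48 and 0.34, beside -0.02 over all tested genes. Mcm4 (0.55 ± 0.17, SE), Top2a (0.81 ± 0.25), Mcm3 (0.56 ± 0.18) and Cdc45 (0.83 ± 0.27) had the lowest unadjusted p in edgeR, so that 3 of these 4 belong to the helicase. In edgeR 0 members were called, the lowest adjusted p being 0.107, although 2.44% of tested genes, 474 in number, were called. At an unadjusted p under 0.05 there were 11 members (8 of S phase and 3 mitotic), against 14.6% of genes. In 8 members, 7 of S phase and Top2a, all combination libraries were above all anti-IL-1R1 libraries, against 8.8% of genes, and in 0 all were below, against 8.29%. DESeq2 called 2 members, Top2a (adjusted p = 0.0375) and Mcm4 (adjusted p = 0.0456), among 1297 of 19328 genes. This share of the members was no larger than that of all genes. In limma voom 0 members were called, among 143 of 19436 genes. At an unadjusted p under 0.05 there were 12 members in DESeq2 and 8 in limma voom, against 3184 and 2988 genes.

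Mcm2 differed by 0.52 ± 0.18, Pcna by 0.48 ± 0.23 and Mki67 by 0.32 ± 0.21 between combination and anti-IL-1R1 tumours. Cdk1 differed by 0.31 ± 0.17 and Ccnb1 by 0.31 ± 0.17. Cdt1, lowest in anti-IL-1R1, differed by 0.33 ± 0.14, and Kif23 by -0.19 ± 0.17. Without combination 3 the median of mitotic members was 0.18. Without combination 1, 22 members lay above all anti-IL-1R1 libraries, against 12.8% of genes, and 1 was called. Without anti-IL-1R1 3 there were 16 such members, against 11.1% of genes. Over all genes, the calls ran from 0 to 660 with 1 library left out.

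The interaction sets the difference that the anti-IL-1R1 antibody made on top of the CD40 agonist against the difference it made alone. Its median log2 value was 0.18 for S phase members, with 15 of 17 positive, and -0.07 for mitotic members, with 10 of 23 positive, beside -0.03 over all tested genes. Kif23 (-0.51 ± 0.24, SE), E2f1 (0.54 ± 0.27), Cdt1 (0.39 ± 0.20) and Mcm2 (0.35 ± 0.25) had the lowest unadjusted p in edgeR. The 3 S phase members of these had negative values in anti-IL-1R1 against untreated and positive ones in combination against CD40 agonist. In edgeR the adjusted p was 1 for every member, and 0% of tested genes was called. There 1 member had an unadjusted p under 0.05, against 4.37% of genes. DESeq2 and limma voom called 0 members, with 0 below 0.05 unadjusted, against 1052 of 19328 and 946 of 19436 genes. Mki67 (-0.06 ± 0.30), Top2a (0.16 ± 0.35), Pcna (0.15 ± 0.32), Ccnb1 (0.03 ± 0.24) and Cdk1 (0.04 ± 0.24) were within their errors of zero. The median of mitotic members was 0.00 with the GC offsets and 0.12 without combination 1, and the S phase median was 0.37 without anti-IL-1R1 3.

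S phase and mitotic members were also compared within each library, where depth and scaling cancel. The level of a list is the mean log2(CPM + 0.5) of its members, and it is a description with no test. S phase minus mitotic level was -0.10, -0.07 and -0.02 in combination, -0.21, -0.16 and -0.14 in CD40 agonist, -0.24, -0.13 and -0.27 in anti-IL-1R1 and -0.03, -0.06 and -0.12 in untreated tumours (means -0.06 ± 0.04, -0.17 ± 0.04, -0.21 ± 0.08 and -0.07 ± 0.04, SD, n = 3 each). The combination and untreated libraries overlapped and lay above all CD40 agonist and anti-IL-1R1 libraries, which overlapped with each other. Relative to mitotic members, the S phase members were therefore lower in both single-antibody groups than in combination and untreated tumours. With Mki67, Top2a, Ccna2 and Mybl2 left out of the mitotic list because they are also made in S phase, the means were 0.08, -0.06, -0.12 and 0.02 in the same order, with the order of the groups kept. With the GC offsets the differences ran from -0.10 to 0.02 in combination, -0.22 to -0.12 in CD40 agonist, -0.26 to -0.09 in anti-IL-1R1 and -0.14 to -0.06 in untreated tumours, so that combination still cleared CD40 agonist but the other gaps closed.

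**Figure D4:**
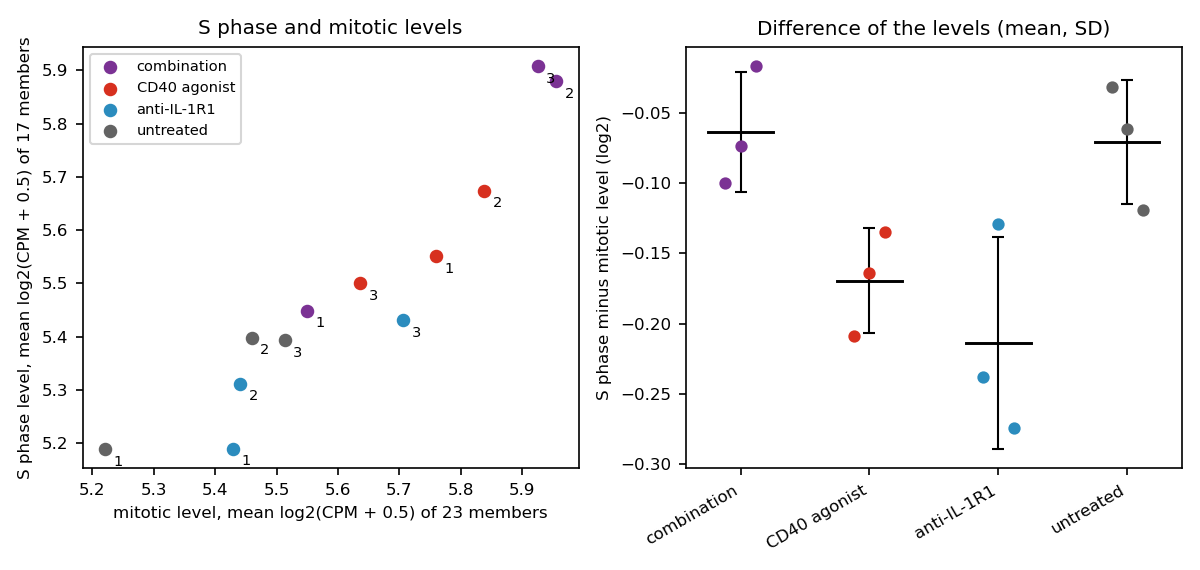
Left, the S phase level (mean log2(CPM + 0.5) of 17 members) against the mitotic level (23 members) in each library, with replicate numbers; right, their difference by group, with each library as a point, the mean as a line and the SD of 3 libraries as a bar. Combination 2 and 3 sit at the top right, and the differences of CD40 agonist and anti-IL-1R1 tumours lie below those of combination and untreated tumours.

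Combination tumours differed among themselves more than the other groups did. The median SD of log2(CPM + 0.5) over the members was 0.381 in combination, 0.135 in CD40 agonist, 0.243 in anti-IL-1R1 and 0.187 in untreated tumours, while the genes averaging 5 CPM or more had 0.311, 0.21, 0.265 and 0.14 in that order. In combination 3, 14 members exceeded the mean of the other combination libraries by over 0.5 on the log2 scale and 5 were below it by over 0.5. Cenpe was highest above it (1.07), followed by Top2a, Ube2c, Pcna, Birc5, Bub1 and Ccne1, and Kif20a was furthest below (-2.7), with Gins2, Cdc20, Foxm1 and Mcm5. These deviations were negatively related to transcript GC content, with a Spearman rho of -0.43 across the 40 members and -0.34 across 10891 genes. The 10 members with the lowest GC (36.3 to 45.5%) had a median deviation of 0.65, and the 10 with the highest (53.4 to 58.8%) a median of 0.01. In combination 2 the rho was 0.64 across members and 0.42 across genes. Of the 7 members furthest above in combination 3, Bub1, Cenpe, Top2a, Pcna and Birc5 had a GC content of 41.0 to 47.4%. Ccne1 stood at 52.7% and Ube2c at 55.5%, as the plot of combination 3 against GC shows. The part of GC content, RNA quality or cell make-up in these deviations was not tested.

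**Figure D5:**
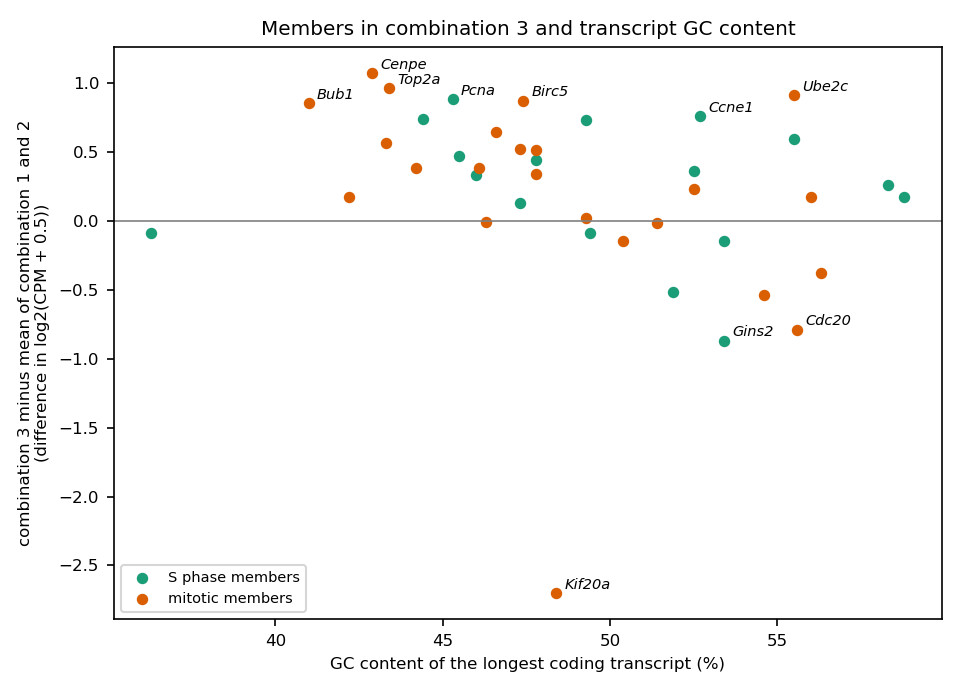
Each member's level in combination 3 minus its mean in combination 1 and 2 (vertical axis, difference in log2(CPM + 0.5)) against the GC content of its longest coding transcript (horizontal axis, percent), S phase members in green and mitotic members in orange. Members of low GC mostly lie above zero, Kif20a lies at -2.7, and the members furthest from zero are named.

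Other genes of the same processes, from lists that hold none of the members, leaned the same way. These lists too were chosen with earlier results of these data known and were read in the same 12 libraries. They are therefore no separate support. Of 30 further replication genes, 27 had a positive log2 fold change in combination against untreated tumours (median 0.53). An unadjusted p under 0.05 was found for 16, all higher, against 15.5% of all tested genes. Among them were Mcm10, which recruits polymerase (1.14 ± 0.34), the GINS subunit Gins1 (0.87 ± 0.22) and the polymerase subunit Pola1 (0.77 ± 0.22). Of 35 further mitotic genes, 31 were positive (median 0.51) and 18 had an unadjusted p under 0.05, all higher, against the same 15.5%. Among these were the motor Kif4 (1.08 ± 0.29), the kinetochore protein Nuf2 (1.04 ± 0.30) and Anln (0.71 ± 0.19), which scaffolds the cleavage furrow. In CD40 agonist against untreated tumours 27 of 30 and 34 of 35 were positive, with medians of 0.28 and 0.31 and 2 genes of each list at an unadjusted p under 0.05, against 2.41% of all tested genes. In combination against CD40 agonist the medians were 0.32 and 0.17, with 1 and 0 genes at that level, against 6.64% of genes, and in combination against anti-IL-1R1 0.41 and 0.32, with 8 and 4, against 14.6%. In anti-IL-1R1 against untreated they were 0.07 and 0.16, with 0 and 2, against 1.56%. In edgeR 0 genes of either list were called in any comparison.

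The 19 upstream genes, G1 cyclins with their kinases and the E2F and MuvB factors, lay nearer to zero in both comparisons of a CD40 agonist group with untreated tumours. In combination against untreated tumours 13 of 19 were positive with a median of 0.12, and in CD40 agonist against untreated 9 of 19 with a median of -0.01. Of these, the MuvB subunit Lin9 was at 17.7, 14.1 and 31.5 CPM in combination and 9.87, 11 and 9.35 CPM in untreated tumours, with no overlap. In anti-IL-1R1 against untreated 6 of 19 were positive with a median of -0.13, in combination against anti-IL-1R1 16 of 19 with a median of 0.24, and in the interaction 18 of 19 with a median of 0.14, beside 0.13 for the further replication and 0.04 for the further mitotic genes. No gene of this list was called by edgeR, with 3 at an unadjusted p under 0.05 in each combination comparison against a single group and 0 in the other comparisons. The 3 of 19 are a share near that of all genes in combination against untreated (15.5%) and against anti-IL-1R1 (14.6%), and above it against CD40 agonist (6.64%).

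Of 15 cell cycle inhibitors, 7 were positive in combination against untreated tumours (median -0.05). At an unadjusted p under 0.05 in edgeR there were 2 higher, Rbl1 and Cdkn1a, and 1 lower, Cdkn1b, against 15.5% of all tested genes. Rbl1 had the lowest p of these (0.84 ± 0.22, SE, edgeR adjusted p = 0.102). Cdkn1a, which encodes the Cdk inhibitor p21, was at 88.3, 55.3 and 80 CPM in combination, 66.3, 69.7 and 29.9 CPM in CD40 agonist, 34.1, 20.3 and 20.3 CPM in anti-IL-1R1 and 31.9, 24.6 and 39.7 CPM in untreated tumours. It was higher in combination than in anti-IL-1R1 tumours (1.58 ± 0.33, edgeR adjusted p = 0.0308), the 1 call among these 4 further lists in the 6 comparisons, and differed by 1.22 ± 0.32 from untreated (adjusted p = 0.106). Cdkn1b, which encodes p27, was at 140.3, 129.5 and 124.5 CPM in combination and 172, 155 and 177 CPM in untreated tumours (-0.35 ± 0.15, edgeR adjusted p = 0.278), with no overlap between these groups.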

How the data were processed

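Total RNA of 12 tumour libraries was measured. The authors deposited 3 pairwise tables holding raw counts of each gene, on which everything here rests; per the file headers the tables also hold the authors' log2 fold changes and p-values from their comparison, which were used only where the authors' table is named. The submitters' processing notes name mm39 and DESeq2 without versions; the aligner, the counter, the annotation release and the strand setting are unknown here, so reads of overlapping or antisense genes cannot be told apart. The tables were joined on gene ID (25619 genes in all 3 of 31106 in any, with 0 count mismatches between tables), and 42 columns of normalized values were not used.

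All 12 libraries were fitted with edgeR 4.0.16 in R 4.3.3 (quasi-likelihood test, robust, TMM factors, filterByExpr, 19436 genes tested, 8 residual degrees of freedom, common dispersion 0.199), with Benjamini-Hochberg adjustment over all tested genes and a threshold of 0.05. The script was tested on simulated data. Alternatives used DESeq2 1.42.0, limma voom (limma 3.58.1), other scalings and filters, the compared groups alone, a replicate block, and libraries left out. Detection of 1 epithelial marker is not reported here. Levels are CPM on TMM-scaled totals, and SE is the log2 fold change over the root of the F statistic. Transcript GC is that of the longest coding GENCODE transcript. Replicate numbers were taken to pair libraries only between anti-IL-1R1 and untreated, where all 3 pairs correlated above 0.1 (0.246, 0.246 and 0.147); the labels do not say what a number marks. The lowest median chi-square between libraries was 5.19, so that none was a copy of another. The members and lists were chosen with earlier results of these data known. Values in every library are given for Mki67, Top2a, Mcm2, Pcna, Ccnb1 and Cdk1 and for the 4 members of lowest p in each comparison. In the further lists, called genes and up to 3 genes of lowest p are named. Kif20a, Cdc20, Mcm5 and Gins2 were singled out after their values were seen.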

Additional observations from a re-analysis of the deposited data

How the results depend on the processing

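Direction and call of members were compared across scalings, filters, tools, fits and libraries left out. Called members in combination against untreated tumours numbered 1 without a filter on low counts, 4 in DESeq2, 1 without the 2 muscle-rich libraries and 0 to 3 with 1 library left out; in combination against anti-IL-1R1 they numbered 2 in DESeq2, 2 with GC offsets (added after seeing the data), 1 without the muscle-rich libraries and 0 to 1 with 1 library left out. Over all genes, combination against untreated called 72 without the filter, 1026 in DESeq2, 1 in limma voom, 1 with GC offsets, 154 in the compared groups alone, 153 without the muscle-rich libraries and 0 to 550 with 1 library left out. Combination against anti-IL-1R1 called 474 in the main fit, 1297 in DESeq2, 143 in limma voom and 0 to 660 with 1 left out. Its count over all genes is not given here with GC offsets or without the muscle-rich libraries. The member calls of this comparison under those settings therefore have no background. Combination against CD40 agonist called 100 in DESeq2, 0 with library totals, limma voom, the compared groups alone or without the muscle-rich libraries, and 0 to 5 with 1 left out. DESeq2 called 8 genes in CD40 agonist against untreated (0 to 8 in edgeR with 1 left out) and 21 in the interaction. The replicate block over all 12 libraries called 0 members and 0 genes in these comparisons. Of 18 same-numbered pairs 5 correlated above 0.1 (range -0.547 to 0.248) and 5 best with their own number, among them all 3 pairs of anti-IL-1R1 and untreated, where the block in those 6 libraries alone called 27 genes and 0 members.

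With 1 library left out, the mitotic median ran from 0.034 to 0.296 in combination against CD40 agonist, 0.179 to 0.439 in combination against anti-IL-1R1 and -0.159 to 0.12 in the interaction, and the S phase median of the interaction from 0.152 to 0.369. Without the muscle-rich libraries the S phase median was 0.44 in combination against CD40 agonist and 0.447 in the interaction. Members with all libraries higher numbered 1 to 13 in anti-IL-1R1 against untreated, 2 to 18 in combination against CD40 agonist, 14 to 31 against untreated and 8 to 22 against anti-IL-1R1. The share of all genes also rose with 1 library left out. It was then 7.77 to 13.5%, 5.62 to 12.7%, 13 to 20.5% and 11.1 to 14.3% in that order. With all libraries it was 4.84%, 3.54%, 10.7% and 8.8%. S phase minus mitotic level with 19 mitotic members was 0.077, -0.062, -0.122 and 0.02 in combination, CD40 agonist, anti-IL-1R1 and untreated tumours. Signs of single members turned for Mcm2 in anti-IL-1R1 against untreated (0.09 with GC offsets, -0.104 to 0.052 with 1 library left out) and in the interaction for Mki67 (0.07 without the muscle-rich libraries, -0.313 to 0.111 with 1 left out), Top2a (-0.242 to 0.322), Pcna (-0.208 to 0.343), Ccnb1 (-0.109 to 0.156) and Cdk1 (-0.085 to 0.169). The causes were not tested. Libraries held 27.8 to 53.3 M reads in genes, and the lowest count of a member in a library was 118.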
